A study of Mus musculus with 82 samples.

Results

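The genes encoding regulators of G protein signaling (RGS) were followed in primary aortic vascular smooth muscle cells (aVSMC) of C57BL/6 mice incubated with EGF, angiotensin II (AngII) and the thromboxane A2 analog U46619. The members were the 10 genes Rgs2, Rgs3, Rgs4, Rgs5, Rgs10, Rgs12, Rgs14, Rgs16, Rgs17 and Rgs19, picked by gene symbol from the 55401 genes of the count tables. RNA-sequencing after poly(A) enrichment gave 82 libraries. At 24 h, aVSMC from 6 mice were each left as Control or received EGF, AngII, U46619, EGF+AngII, EGF+U46619 or EGF+AngII+U46619, which gave 7 groups of 6. At 48 h, an EGF/U46619 batch (Control, EGF, U46619, EGF+U46619) and an EGF/AngII batch (Control, EGF, AngII, EGF+AngII) held 5 culture sets each. EGF was given at 10 µg/L, AngII at 10 nM and U46619 at 1 µM. All cells, Control included, had been expanded in a medium that already contained fetal calf serum, insulin and EGF, and were then deprived of all supplements for 24 h. The cells had up to 7 passages, so the data describe cultured and not freshly isolated smooth muscle.

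RGS proteins bind the active, GTP-bound alpha subunit of heterotrimeric G proteins and speed up GTP hydrolysis, which ends the signal of a G protein-coupled receptor. The AngII receptor AT1R and the thromboxane receptor TP both signal through such G proteins, whereas the EGF receptor is a tyrosine kinase. Rgs2, Rgs3, Rgs4, Rgs5 and Rgs16 belong to the R4 family of small RGS proteins, of which Rgs2 prefers the Gq class that raises calcium in smooth muscle. Rgs17 and Rgs19 belong to the RZ family, and Rgs10, Rgs12 and Rgs14 to the R12 family. In the vessel wall, Rgs5 is best known as a gene of mural cells, the smooth muscle cells and pericytes.

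Library totals were 16483529 to 20818809 counted fragments at 24 h and 19936925 to 33916114 at 48 h. Levels are given as FPM, the fragment count scaled to a library of 1000000 fragments after trimmed mean of M value (TMM) normalization. A differentially expressed gene (DEG) is one with a false discovery rate (FDR) below 0.05 in edgeR and in DESeq2 that also averaged 5 FPM or more in 1 of the groups set against each other. At 24 h 14653 genes were tested and at 48 h 15796. In the EGF/AngII batch, the library labelled Control replicate 4 deviated with culture set 2 (median r = 0.85) and not with its own set (median r = -0.28). Fits that leave it out are named as such and are given for some results only. The other fits of both 48 h batches include it, as do the Control levels of the EGF/AngII batch. Control replicate 2 of that batch was also less like its own set (median r = 0.54) than the other cultures of the set (0.89 each). It was still closer to its own set than to set 1 (0.47), and no fit left out this library alone. The labels name 5 mice for the 10 culture sets of 48 h, whereas the study's methods give each replicate its own mouse. The fits here used the mouse of the label. Mouse 7 stands for 5 of these sets, so the main fits of 48 h did not pair cultures by set. They also had no term for the batch, although the labels place some mice in both batches. Fits with the culture set as block are given as an alternative, and the calls of 48 h depend on this choice. The p-values measure the spread between these cultures. The contractile markers Acta2, Myh11, Smtn and Lmod1 were detected in all Control groups, while Tagln and Cnn1 are listed at 0 in every library, as are all genes of their chromosome. In such cultures, fewer cells of a type and less RNA per cell cannot be told apart.

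Rgs2, Rgs4, Rgs5 and Rgs16 all lie on chromosome 1 (GRCm38). Rgs5 (chr1:169655501-169695813, plus strand) and Rgs4 (chr1:169741477-169747642, minus strand) are neighbours, 45.7 kb apart. Rgs2 lies at chr1:143999338-144004161 on the minus strand and Rgs16 at chr1:153740349-153745468 on the plus strand. Rgs3 is on chromosome 4, Rgs10 on chromosome 7, Rgs12 on chromosome 5, Rgs14 on chromosome 13, Rgs17 on chromosome 10 and Rgs19 on chromosome 2. The 250 bases upstream of the RefSeq start sites (GRCm38.p6) are shown for the 4 genes of chromosome 1, since these carried the largest differences described below. The windows are chr1:144004150-144004399 for Rgs2, chr1:169747643-169747892 for Rgs4, chr1:169655251-169655500 for Rgs5 and chr1:153740103-153740352 for Rgs16, each written 5′ to 3′ on the strand of its gene. Capitals mark the cAMP response element core TGACG (or CGTCA on the other strand) and the TATA element TATAA.
Rgs2: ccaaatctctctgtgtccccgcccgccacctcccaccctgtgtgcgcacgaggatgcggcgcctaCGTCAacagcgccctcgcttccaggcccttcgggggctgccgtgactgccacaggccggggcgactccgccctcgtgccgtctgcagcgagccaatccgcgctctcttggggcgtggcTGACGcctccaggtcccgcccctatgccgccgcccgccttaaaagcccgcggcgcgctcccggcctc
Rgs4: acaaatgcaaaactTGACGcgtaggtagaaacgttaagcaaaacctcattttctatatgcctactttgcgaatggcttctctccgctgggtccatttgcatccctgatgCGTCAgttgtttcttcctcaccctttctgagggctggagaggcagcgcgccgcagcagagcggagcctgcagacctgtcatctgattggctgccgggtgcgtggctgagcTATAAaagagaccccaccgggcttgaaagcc
Rgs5: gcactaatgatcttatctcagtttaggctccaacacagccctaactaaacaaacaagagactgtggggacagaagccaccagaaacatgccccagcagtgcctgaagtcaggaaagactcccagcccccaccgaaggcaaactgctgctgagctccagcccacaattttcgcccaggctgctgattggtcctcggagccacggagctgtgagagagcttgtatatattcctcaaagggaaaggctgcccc
Rgs16: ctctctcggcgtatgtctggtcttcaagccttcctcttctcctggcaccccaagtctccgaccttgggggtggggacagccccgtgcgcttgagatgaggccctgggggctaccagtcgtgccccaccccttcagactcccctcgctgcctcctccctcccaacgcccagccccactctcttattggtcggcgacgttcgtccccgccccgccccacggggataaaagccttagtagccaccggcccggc
The windows of Rgs2 and Rgs4 each held 2 cAMP response element cores, those of Rgs2 starting at -185 and -67 and those of Rgs4 at -236 and -141, counted from the start site. The windows of Rgs5 and Rgs16 held none. Over 32851 promoter windows of the same length, 17.8% held this core. Rgs4 also had TATAA starting at -31, which 22.8% of windows contained. An AP-1 element (TGANTCA, 6.75% of windows), a TEAD element (GGAATG, 12.6%) and the SRF CArG box (1.47%), all searched on both strands, were in none of the 4 windows. These matches describe letters only.

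The RGS genes of unstimulated aVSMC spanned a wide range of levels. Divided by exon length, the median of the 6 Control cultures of 24 h was highest for Rgs19, with 17.7 FPM per kb (12.2 to 22.7). Rgs10 followed with a median of 13.5 FPM per kb, Rgs16 with 10.1, Rgs5 with 9.94, Rgs3 with 7.02 and Rgs12 with 4.85. Most neighbours in this order did not differ beyond their spread: Rgs19 was above Rgs10 in 4 of 6 cultures, Rgs10 above Rgs16 in 3 of 6 and Rgs5 above Rgs3 in 2 of 6. Rgs4 had a median of 1.33 FPM per kb and Rgs2 of 1.22. Rgs17 was below Rgs2 in 6 of 6 cultures, with a median of 0.0864 FPM per kb. Rgs14 was barely detected, with 0 counts in 27 of the 42 libraries of 24 h and at most 8 counts, and its counts were too low for any test. All counts of called members that follow are therefore out of 9. In the EGF/U46619 batch at 48 h the order of the Control medians was the same as at 24 h, whereas in the EGF/AngII batch Rgs19 was followed by Rgs3, Rgs5, Rgs10 and Rgs16.

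**Figure D1:**
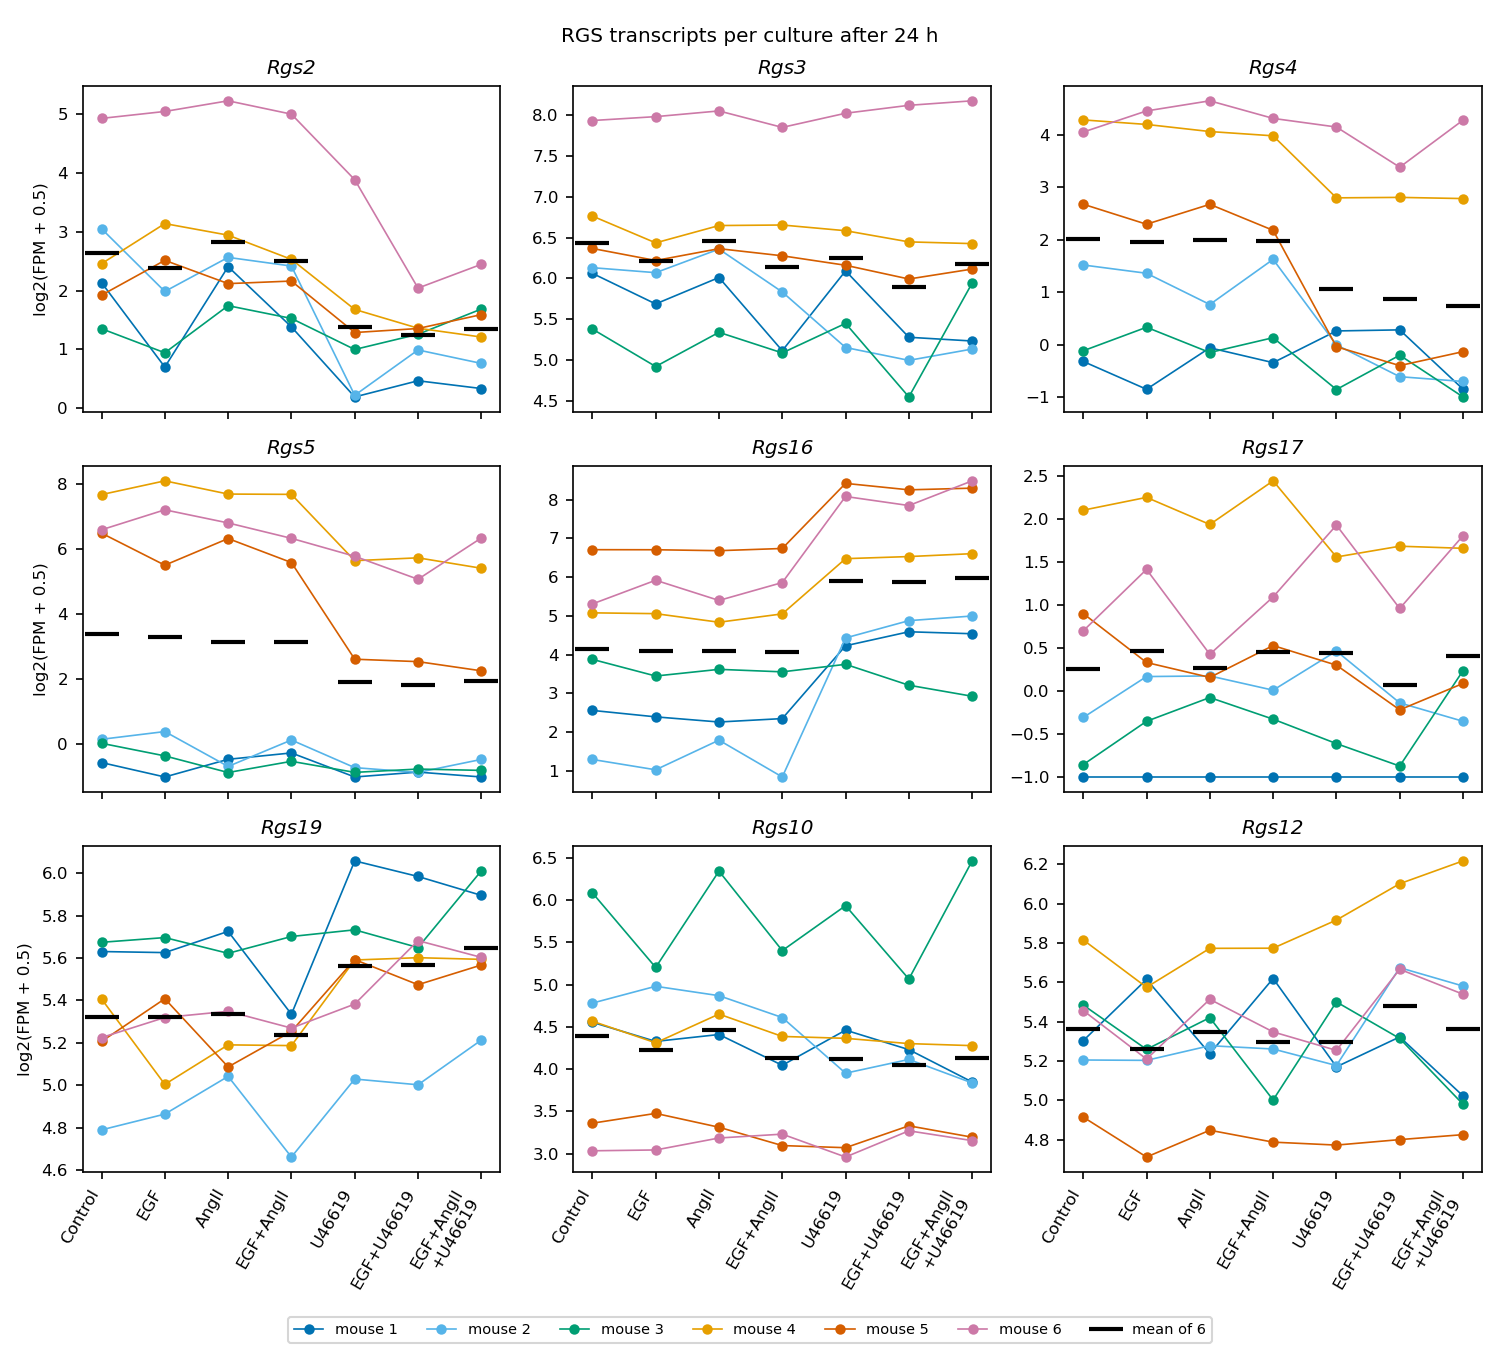
Levels of the 9 tested RGS genes at 24 h on the log2(FPM + 0.5) scale, by group, with a thin line for the cultures of each mouse and a black bar at the mean of 6. The lines of Rgs5, Rgs4 and Rgs16 are spread far apart between mice, while those of Rgs12 and Rgs19 lie close together.

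The mice differed far more in some members than in others. Rgs5, the mural cell gene, differed most. Its Control cultures had 0.18, 0.616 and 0.525 FPM in mice 1 to 3 and 205, 89.7 and 96.4 FPM in mice 4 to 6. The cultures thus fell into 3 nearly without Rgs5 and 3 with it. Over all 7 groups, Rgs5 had no more than 17 counts in any culture of mice 1 to 3 and at least 84 counts in those of mice 4 to 6. The highest Control culture exceeded the lowest 1139-fold for Rgs5, 63.4-fold for Rgs4, 53.3-fold for Rgs16 and 14.7-fold for Rgs2, but only 1.88-fold for Rgs12 and 1.86-fold for Rgs19. Rgs4 followed the same division in part, with 0.299, 2.36 and 0.42 FPM in the Controls of mice 1 to 3 and 19, 5.89 and 16.1 FPM in those of mice 4 to 6. Rgs10 differed in another way, being highest in mouse 3 (67.4 FPM) and lowest in mouse 6 (7.69 FPM). Rgs3 was highest in mouse 6, with 244 FPM against 41.2 to 108 FPM in the other 5 Control cultures. Rgs17 was at 0 counts in all 7 cultures of mouse 1, so its group means rest on the other 5 mice.

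Endothelial markers moved with the same mice. The summed endothelial markers (Pecam1, Tie1, Kdr, Vwf and Emcn; Cdh5 is listed at 0) were 1.46 to 6.75 FPM in the 7 cultures of mouse 1, 2.33 to 4.57 FPM in mouse 2 and 20.3 to 60.9 FPM in mouse 3. They were 537 to 693 FPM in mouse 4, 315 to 408 FPM in mouse 5 and 1901 to 2472 FPM in mouse 6. The mice without Rgs5 were thus also those with the lowest endothelial signal. The part of other cells in the levels of Rgs5, Rgs4, Rgs3 and Rgs17 was not tested. At 48 h, EGF/AngII set 6 had 32.5 to 53.3 FPM of Rgs5 at endothelial sums of 15 to 17.5 FPM.

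**Figure D2:**
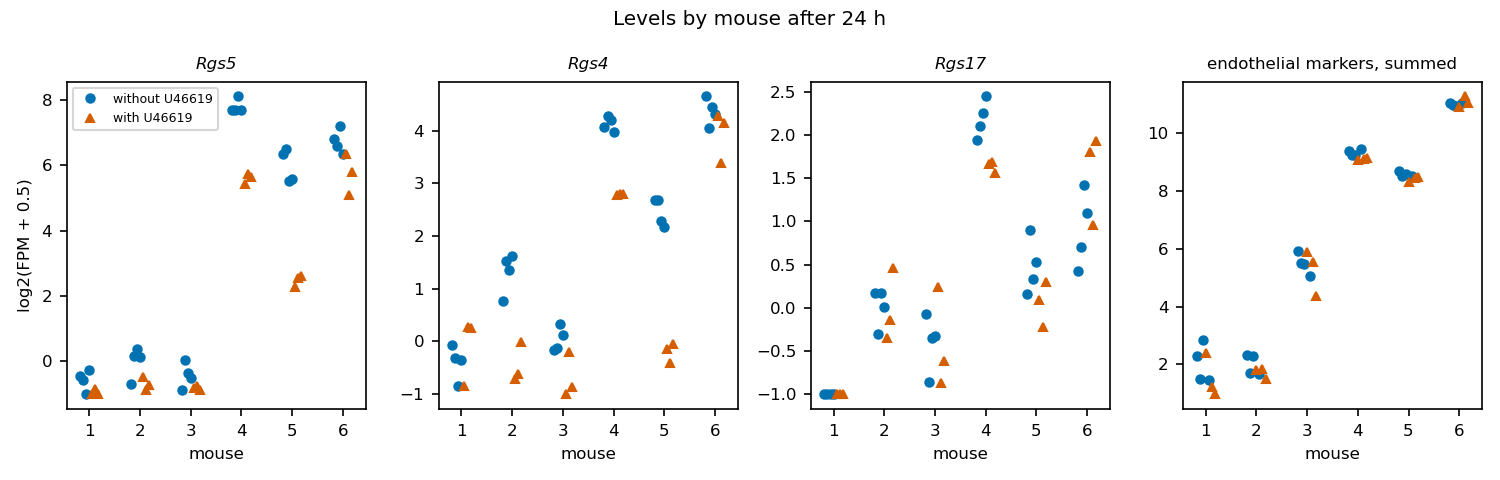
Rgs5, Rgs4, Rgs17 and the summed endothelial markers in each of the 42 cultures of 24 h by mouse, on the log2(FPM + 0.5) scale; circles are cultures without and triangles cultures with U46619. Rgs5 and the endothelial sum are low in mice 1 to 3 and high in mice 4 to 6, and within mice 4 and 5 every U46619 culture has less Rgs5 than every culture without it, while in mouse 6 EGF+AngII+U46619 (80.9 FPM) and EGF+AngII (80.3 FPM) lie side by side.

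U46619, which activates TP, was added alone to ask what TP activation does to the RGS genes. In edgeR and DESeq2, 4 of 9 members were DEG against Control: Rgs2 and Rgs5 fell, and Rgs16 and Rgs19 rose. Of all genes tested, 26.6% were called in this comparison, and with only 9 members no departure from that share can be read. The median log2 fold change of the 9 members was -0.18, beside -0.06 over all genes.

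Rgs5 fell most. Its levels in Control had a lowest, median and highest value of 0.18, 45.2 and 205 FPM, and in U46619 of 0, 2.88 and 54.6 FPM. The groups overlapped because of mice 1 to 3, but within each mouse the U46619 culture was lower (6 of 6). In the mice that had Rgs5, it went from 205 to 49.7 FPM in mouse 4, from 89.7 to 5.65 FPM in mouse 5 and from 96.4 to 54.6 FPM in mouse 6. The log2 fold change was -2.39 (SE 0.45, FDR 0.000184 in edgeR and 5.69e-06 in DESeq2). Since mice 1 to 3 had few Rgs5 counts, this value rests mainly on mice 4 to 6. The mean log2 difference per culture with a pseudocount of 0.5 FPM, which understates changes at low levels, was -1.49 ± 1.29 (SD, n = 6).

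Rgs2, the Gq-selective member, also fell. Control cultures had a lowest, median and highest level of 2.05, 4.44 and 30.1 FPM, and U46619 cultures of 0.638, 1.71 and 14.3 FPM. The ranges overlapped, yet the U46619 culture was lower than its own Control in 6 of 6 mice, by log2 differences of -0.35 in mouse 3 to -2.84 in mouse 2. The log2 fold change was -1.50 (SE 0.37, FDR 0.00213 in edgeR and 0.000417 in DESeq2). Mouse 6 had by far the most Rgs2. Without it the log2 fold change was -1.61 with FDR 0.00246 and 0.000326, but both group means then lay under 5 FPM and the gene was no longer a DEG.

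Rgs16 went the opposite way. Control cultures had 5.39, 1.95, 14.2, 33.2, 104 and 39.1 FPM in mice 1 to 6, and U46619 cultures 18.2, 21, 12.9, 88.4, 341 and 270 FPM. The group ranges overlapped, and 5 of 6 mice had more Rgs16 with U46619. The exception was mouse 3, where 14.2 FPM in Control stood beside 12.9 FPM. The log2 fold change was 1.76 (SE 0.40, FDR 0.00119 in edgeR and 0.000136 in DESeq2). Rgs16 shares 236 of its 2339 exon bases with Gm28513 on the opposite strand, whose reads cannot be told apart since strand use in counting is not stated.

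Rgs19, the member with the highest level per length, rose slightly. Its Control range was 27.2 to 50.6 FPM with a median of 39.4 FPM, and its U46619 range 32.2 to 66.2 FPM with a median of 47.7 FPM. The ranges overlapped widely, and all 6 mice were higher, by a mean log2 difference of 0.24 ± 0.14 (SD). In the fit, the log2 fold change was 0.25 (SE 0.09, FDR 0.0295 in edgeR and 0.0353 in DESeq2). The call was lost when mouse 1, 2 or 5 was left out, with log2 fold changes of 0.21 to 0.30 over the alternatives. Without a filter on low counts, without the replicate block or with only the groups compared, it was lost as well.

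The remaining R4 members were less uniform. Rgs4, the neighbour of Rgs5, had a lowest, median and highest level of 0.299, 4.12 and 19 FPM in Control and of 0.0515, 0.596 and 17.2 FPM in U46619. It was lower in mice 2, 3, 4 and 5 but not in mice 1 and 6, and its log2 fold change of -1.35 (SE 0.54) had an FDR of 0.0481 in edgeR and 0.0743 in DESeq2, so it was no DEG. Rgs3 had a lowest, median and highest level of 41.2, 75.9 and 244 FPM in Control and of 35.1, 69.4 and 260 FPM in U46619, with a log2 fold change of -0.18 (SE 0.18). Among the R12 family, Rgs10 was lower in 6 of 6 mice (mean log2 difference -0.27 ± 0.28, SD) but was not a DEG, and Rgs12, a large multi-domain RGS protein, had a log2 fold change of -0.06.

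**Figure D3:**
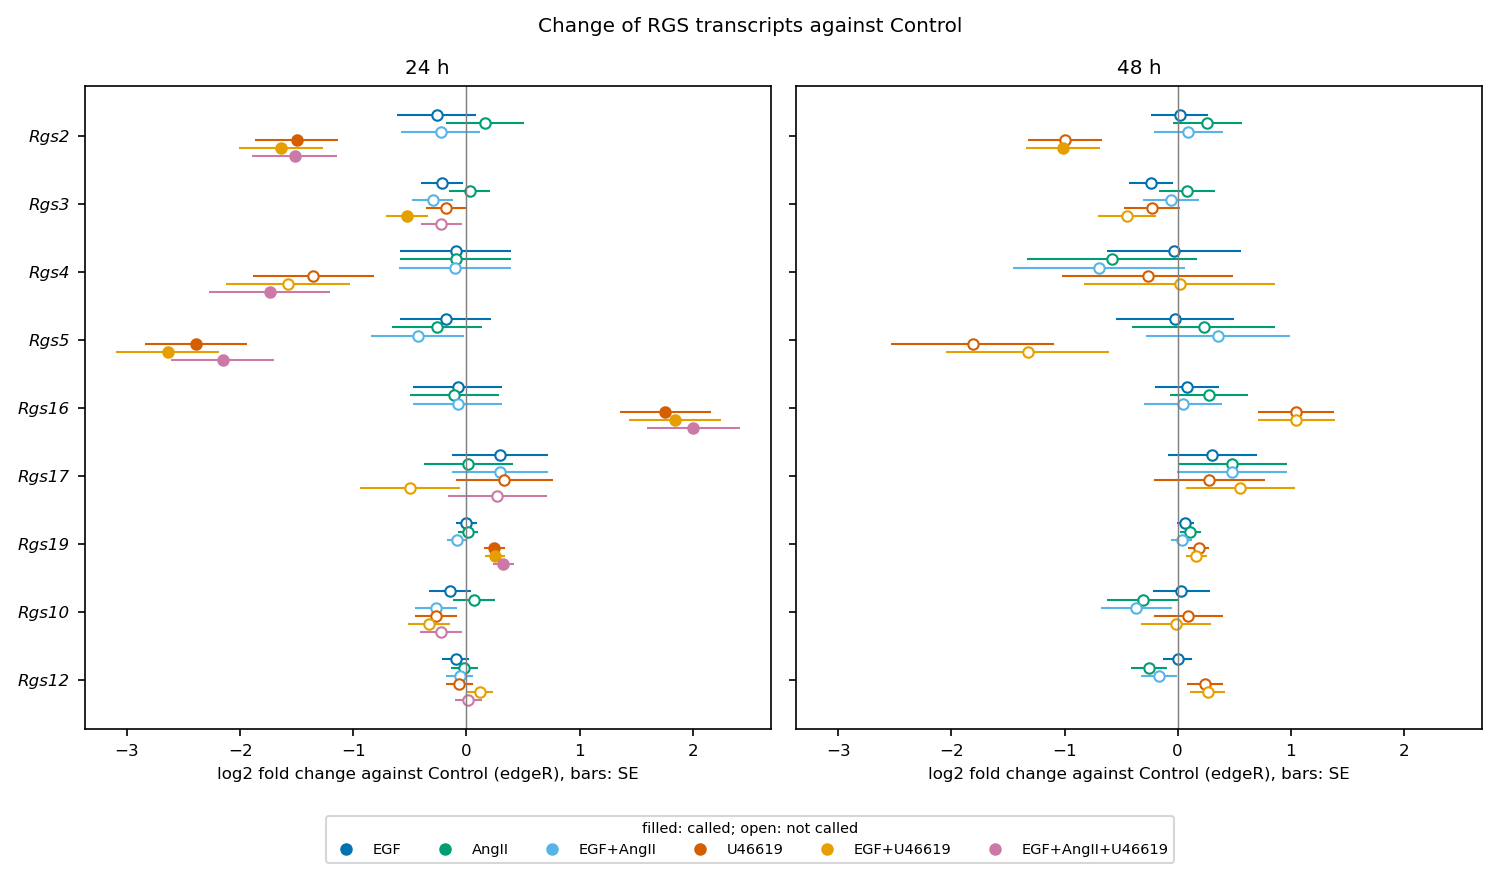
Log2 fold change against Control (edgeR, ± SE) of the 9 tested RGS genes for each stimulus at 24 h (left) and 48 h (right); filled symbols are DEG. At 24 h Rgs5 and Rgs2 lie below 0 and Rgs16 and Rgs19 above 0 in all 3 groups with U46619, and at 48 h Rgs2 in EGF+U46619 is the only filled symbol.

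Cell type markers changed under U46619 as well. Of all genes, 26.6% were called in this comparison, and with so few markers per list no departure from that share can be read. Of 6 tested smooth muscle markers 2 rose, Acta2 by a log2 fold change of 2.05 and Lmod1 by 0.84, and the summed level went from 1256 to 5380 FPM in Control (median 2628) to 4426 to 15184 FPM (median 11976). This sum is mostly Acta2, which had a mean of 2602 FPM in Control. Of 5 fibroblast markers 4 fell, and their sum had a median of 383 FPM in Control (185.4 to 509) and 148.7 FPM in U46619 (130 to 267). Of 4 mural cell markers other than Rgs5, 1 fell (Notch3, log2 fold change -1.27), and their sum was 415 to 1044 FPM in Control and 313 to 1102 FPM in U46619. Of 3 leukocyte markers 1 rose (Csf1r) and 1 fell (Lyz2), at sums of 20.9 to 114 FPM in Control and 23.3 to 76.6 FPM in U46619. None of 5 endothelial markers was a DEG, with sums of 4.37 to 2128 FPM in Control and 3.03 to 1901 FPM in U46619. The part of these cells in the RGS differences was not tested.

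EGF, the ligand of EGFR, and AngII did not give an RGS DEG at 24 h. With EGF 0 of 9 members were called in edgeR and DESeq2 (0.0273% of all genes), with AngII 0 of 9 (0%), and with EGF+AngII 0 of 9 (3.11%). No member had an unadjusted p below 0.05 in either tool in these 3 comparisons. Of the 14653 genes tested, 2546 had one in both tools with EGF, 64 with AngII and 3567 with EGF+AngII. With only 9 members no departure from these shares can be read. For AngII averaged over the Control, EGF and EGF+U46619 backgrounds, 0 of 9 were called (0% of all genes). Again no member had an unadjusted p below 0.05 (113 of all genes in both tools). The log2 fold changes ranged from -0.09 to 0.26 with SEs of 0.05 to 0.30. The SEs show how far this holds: those against Control ran from 0.09 for Rgs19 to 0.49 at most. An SE is not a detection limit, and differences of Rgs5, Rgs4 or Rgs17 larger than their SE can also have been missed. Rgs3 was lower with EGF in 5 of 6 mice (mean log2 difference -0.22 ± 0.20, SD) and with EGF+AngII in 6 of 6 (-0.30 ± 0.33). Rgs5 shows how EGF left the levels of individual cultures, with 275, 45.1 and 147.9 FPM in mice 4 to 6 against 205, 89.7 and 96.4 FPM in their Controls, up in mice 4 and 6 and down in mouse 5.

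The combinations that contained U46619 gave DEG with the signs seen for U46619 alone. These comparisons share their Control cultures, so their values are set side by side. With EGF+U46619, 5 of 9 members were DEG in edgeR and DESeq2 (31.8% of all genes), and with EGF+AngII+U46619 also 5 of 9 (33.1%). The member medians were -0.50 and -0.22 on the log2 scale, beside -0.05 and -0.04 over all genes.

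Rgs5 had a lowest, median and highest level of 0.0511, 2.72 and 52.8 FPM with EGF+U46619 and of 0, 2.26 and 80.9 FPM with EGF+AngII+U46619. Each culture was lower than its Control in both groups (6 of 6). Log2 fold changes were -2.64 (SE 0.46, FDR 4.13e-05 in edgeR) and -2.16 (SE 0.46, FDR 0.000325 in edgeR). For Rgs2 the levels were 0.878, 1.97 and 3.62 FPM with EGF+U46619 and 0.757, 2.16 and 4.95 FPM with EGF+AngII+U46619. Its level was lower than in Control in 6 of 6 and 5 of 6 mice, with log2 fold changes of -1.64 (SE 0.37) and -1.52 (SE 0.38). As with U46619 alone, the Rgs2 calls of these groups were lost without mouse 6.

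Rgs16 had a lowest, median and highest level of 8.74, 60.3 and 304 FPM with EGF+U46619 and of 7.09, 64 and 357 FPM with EGF+AngII+U46619. In both groups 5 of 6 mice were higher than their Control, and mouse 3 was lower (log2 difference -0.67 and -0.95). Log2 fold changes were 1.84 (SE 0.41, FDR 0.000566 in edgeR) and 2.01 (SE 0.41, FDR 0.000221 in edgeR). Rgs19 rose by a log2 fold change of 0.25 (SE 0.09) and 0.33 (SE 0.09). It was higher in 5 of 6 mice with EGF+U46619, where the call was lost without mouse 1, 2, 5 or 6, and in 6 of 6 with EGF+AngII+U46619, by a mean log2 difference of 0.33 ± 0.09 (SD). With EGF+AngII+U46619 the Rgs19 call was kept in 11 of 14 alternatives. In both groups it was lost without a filter on low counts, without the replicate block and with only the groups compared.

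The fifth DEG differed in name between the combinations, a difference that was not itself tested. With EGF+U46619 it was Rgs3, which had a lowest, median and highest level of 22.9, 50.8 and 278 FPM beside 41.2, 75.9 and 244 FPM in Control. It was lower in 5 of 6 mice, with a log2 fold change of -0.52 (SE 0.18, FDR 0.022 in edgeR and 0.0275 in DESeq2), and the call was lost without mouse 1, 2, 4 or 5, at log2 fold changes of -0.40 to -0.56. With EGF+AngII+U46619 it was Rgs4, at 0, 0.262 and 18.9 FPM beside 0.299, 4.12 and 19 FPM, with a log2 fold change of -1.74 (SE 0.53, FDR 0.00902 in edgeR and 0.00306 in DESeq2). That call was lost without mouse 2, 4 or 5. Rgs4 in EGF+U46619 missed the threshold in DESeq2 only (log2 fold change -1.58, FDR 0.0219 in edgeR and 0.0568 in DESeq2).

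**Figure D4:**
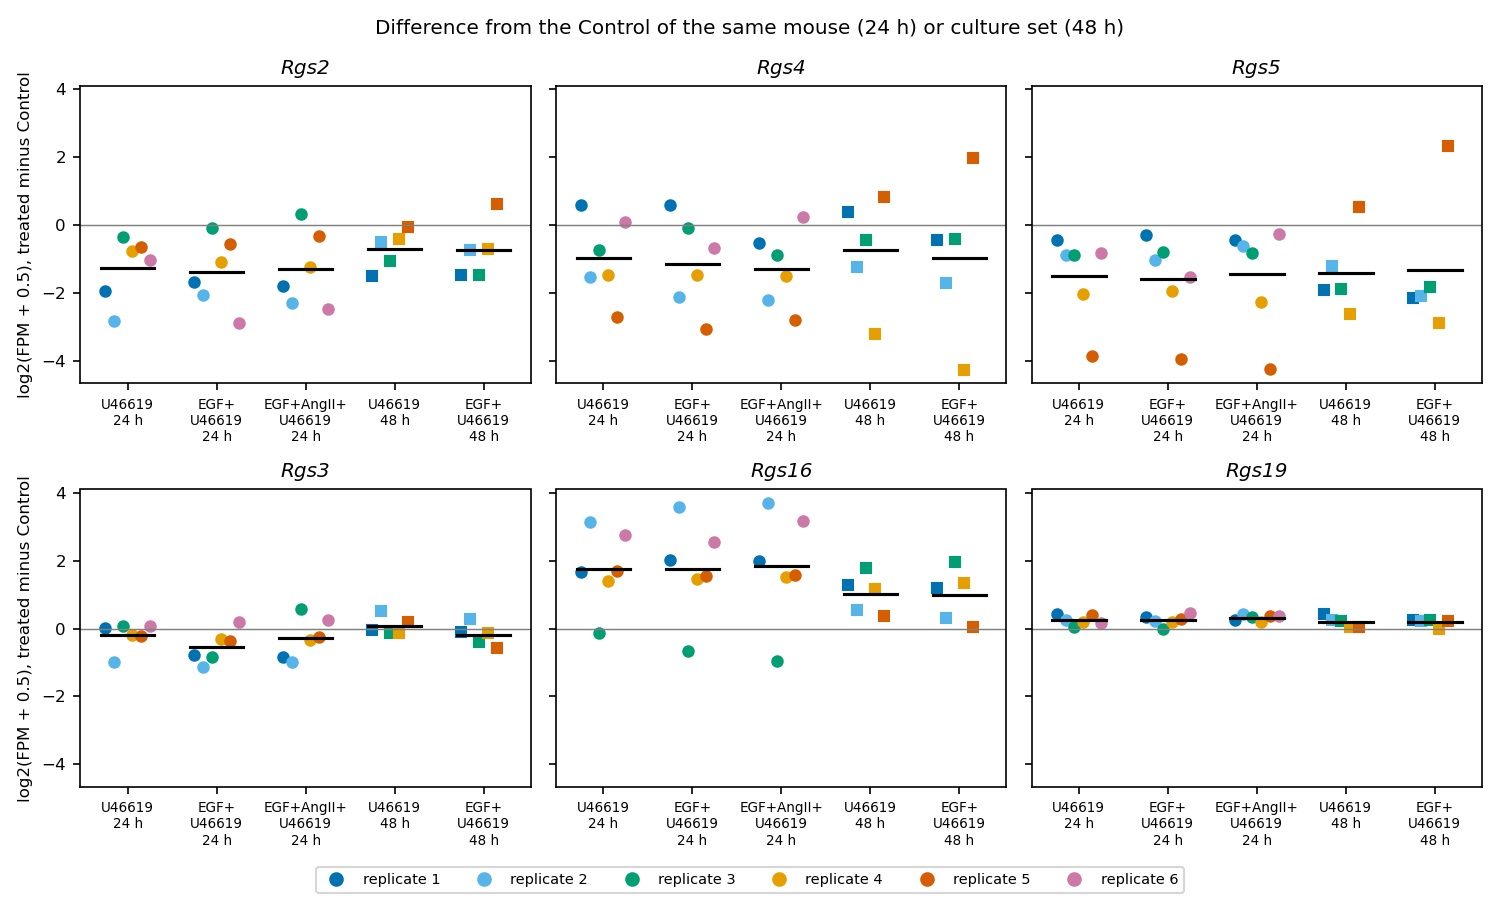
Log2(FPM + 0.5) of each U46619, EGF+U46619 and EGF+AngII+U46619 culture minus the Control of the same mouse or culture set for Rgs2, Rgs4, Rgs5, Rgs3, Rgs16 and Rgs19; circles are 24 h, squares are 48 h and bars are means. At 24 h all 6 U46619 points of Rgs5 and Rgs2 lie below 0, whereas Rgs4 has points on both sides.

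The design also asks whether EGF altered the response to U46619. For EGF+U46619 against U46619, 0 of 9 members were called (0% of all genes), and for the EGF x U46619 interaction 0 of 9 (0%). In neither did a member have an unadjusted p below 0.05 in edgeR or DESeq2. Of all genes, 368 had one in both tools for EGF+U46619 against U46619 and 437 for the interaction. The interaction estimates ran from -1.13 to 0.28 on the log2 scale with SEs of 0.13 to 0.75. Departures from additivity of the size of these SEs, and larger ones, can have been missed. For EGF+U46619 against EGF, 3 of 9 members were DEG (12.8% of all genes). These were Rgs2 (log2 fold change -1.38, SE 0.37), Rgs5 (-2.46, SE 0.45) and Rgs16 (1.92, SE 0.40). For U46619 against EGF, 3 of 9 were DEG (11% of all genes): Rgs2 (-1.24, SE 0.36), Rgs5 (-2.21, SE 0.44) and Rgs16 (1.84, SE 0.40). The Rgs2 call was lost without mouse 4 or 6 for EGF+U46619 against EGF, and without mouse 2, 4, 5 or 6 for U46619 against EGF.

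The fits took the mouse as a term, as replicates of a number came from the same animal. Without this replicate block 0 of 9 members were called in any comparison of 24 h, and the log2 fold change of Rgs5 for U46619 was then -1.83 with an FDR of 0.630 in edgeR and 0.586 in DESeq2. The share of all genes called without the block is not reported here. With the block, Rgs5 and Rgs16 stayed DEG against Control in each of the other 13 alternatives in all 3 groups with U46619, including each left-out mouse.

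At 48 h fewer calls were made with the labelled mouse as block. Of 9 members, 1 was called for EGF+U46619 against Control (6.3% of all genes) and 0 for U46619 against Control (3.7%). For U46619, 3 members had an unadjusted p below 0.05 in edgeR and 3 in DESeq2, and DESeq2 alone gave 3 with an FDR below 0.05. For EGF+U46619 against EGF 0 were called (4.43% of all genes), with 2 members at an unadjusted p below 0.05 in edgeR and 3 in DESeq2. For U46619 against EGF 0 were called (2.96%), with 3 members at an unadjusted p below 0.05 in each tool. Of all 15796 genes tested, 3378 reached such a p in both tools for U46619 against Control. The number was 3297 for EGF+U46619 against EGF and 2994 for U46619 against EGF. With only 9 members no departure from these shares can be read. For EGF+U46619 against U46619 (0% of all genes) and the EGF x U46619 interaction (0%), 0 of 9 were called by edgeR and DESeq2 and none had an unadjusted p below 0.05. Of all genes, 61 and 44 had one in both tools.

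The DEG of 48 h was Rgs2. In sets 1 to 5 of the EGF/U46619 batch it had 8.9, 4.88, 4.92, 3.41 and 5.46 FPM in Control, 2.83, 3.27, 2.09, 2.43 and 5.24 FPM with U46619 and 2.89, 2.76, 1.47, 1.91 and 8.57 FPM with EGF+U46619. Sets 1 to 4 were lower with both, and set 5 was higher with EGF+U46619, so the groups overlapped. The log2 fold change for EGF+U46619 was -1.01 (SE 0.32, FDR 0.0486 in edgeR and 0.0169 in DESeq2). For U46619 it was -0.99 (SE 0.32, FDR 0.069 and 0.0255). These fits include the Controls of both batches, and the call for EGF+U46619 was kept in 9 of 21 alternatives. Without the library labelled EGF/AngII Control replicate 4, Rgs2 was a DEG with EGF+U46619 (-1.15, FDR 0.0190 and 0.00344) and with U46619 (-1.11, FDR 0.0329 and 0.00677).

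Rgs16 was higher with U46619 in 5 of 5 sets at 48 h, with 26.5, 49.7, 12.4, 37.6 and 28.5 FPM in Control and 65.1, 73.1, 43.6, 84.9 and 37 FPM with U46619. The groups overlapped, since the U46619 cultures of sets 3 and 5 lay below the Control of set 2. The mean log2 difference was 1.03 ± 0.57 (SD), and with EGF+U46619, again 5 of 5 higher, 0.98 ± 0.78. For U46619 the log2 fold change was 1.05 (SE 0.34), with an FDR of 0.0676 in edgeR and 0.0382 in DESeq2, and was not called.

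Rgs5 had 104, 22.9, 53, 52 and 7.21 FPM in Control and 27.4, 9.66, 13.9, 7.96 and 10.7 FPM with U46619. It was lower in sets 1 to 4 and higher in set 5, the set with the least Control Rgs5 and the lowest endothelial sum (4.67 to 12.3 FPM). Within this batch, set 5 also had the highest fibroblast sum (746 to 1045 FPM). Its median mural cell sum (344 FPM) and smooth muscle sum (990 FPM) were the lowest. In EGF+U46619, set 5 reached 38.6 FPM while sets 1 to 4 had 4.96 to 23.3 FPM. The log2 fold change was -1.81 (SE 0.72, FDR 0.135 in edgeR and 0.0393 in DESeq2) for U46619 and -1.33 (SE 0.72) for EGF+U46619. Rgs4 went apart in the same set, from 22.4 FPM in Control to 89.6 FPM with EGF+U46619 in set 5 and from 18.3 to 0.476 FPM in set 4. Per set, Rgs4 was lower with EGF+U46619 in 4 of 5, by a mean log2 difference of -0.97 ± 2.27 (SD). The fit, which took the labelled mouse as a term and the Controls of both batches, gave a log2 fold change of 0.02 (SE 0.84).

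When the replicate block was the culture set and not the labelled mouse, more members were called at 48 h. The share of all genes called with this block is not reported here, so nothing particular to RGS genes can be read from the counts. With U46619 these were Rgs16 (1.022, FDR 0.00145 in edgeR), Rgs5 (-1.69, FDR 0.00814) and Rgs19 (0.23, FDR 0.0401), and with EGF+U46619 Rgs16 (1.00, FDR 0.00123) and Rgs5 (-1.34, FDR 0.0354), while Rgs2 was not called in either.

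**Figure D5:**
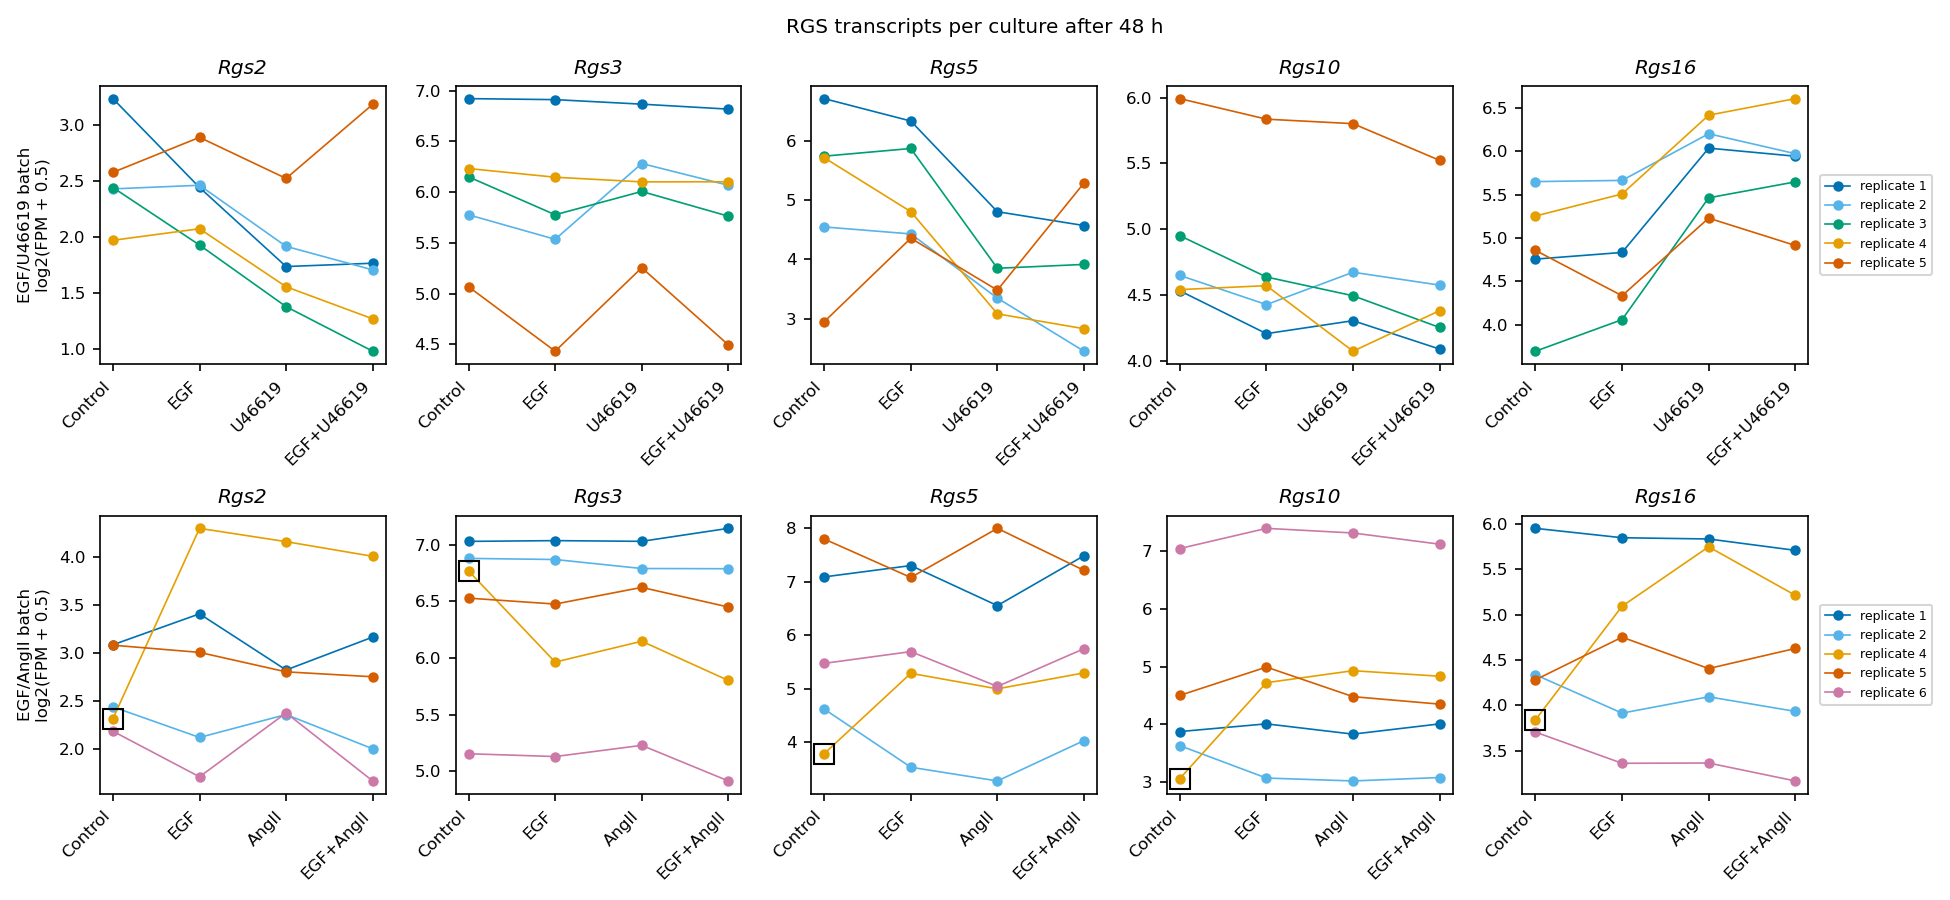
Levels of Rgs2, Rgs3, Rgs5, Rgs10 and Rgs16 at 48 h on the log2(FPM + 0.5) scale, by group, with a line for each culture set, the EGF/U46619 batch in one row and the EGF/AngII batch in the other; the open square is the library labelled EGF/AngII Control replicate 4. In that set the Control lies below the other 3 cultures for Rgs2, Rgs5, Rgs10 and Rgs16 and above them for Rgs3.

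Neither EGF nor AngII gave an RGS DEG at 48 h. In edgeR and DESeq2, 0 of 9 were called for EGF, AngII, EGF+AngII and AngII averaged over the Control and EGF backgrounds, at 0% of all genes each, and no member had an unadjusted p below 0.05 in either tool. Of all genes, 141, 255, 300 and 591 had one in both tools, in that order. Without the library labelled Control replicate 4, 0 were still called, and 1 member, Rgs10, then had an unadjusted p below 0.05 in both tools for AngII averaged over both backgrounds (log2 fold change -0.42, SE 0.19, FDR 0.779 in edgeR). The number of all genes at that p without the library is not reported here. This fit took both batches with no term for the batch, whose part in the value was not tested. Per set, that library included, Rgs10 was higher with AngII than in Control in 2 of 5 sets and lower in 3. The mean log2 difference was 0.29 ± 0.94 (SD), with a median of -0.02. That library set the differences of its set: Rgs2 had 4.48 FPM in it and 17.4, 19.2 and 15.6 FPM with AngII, EGF and EGF+AngII, and Rgs10 had 7.86 FPM in it and 25.9 to 30 FPM in the others. In sets 1, 2, 5 and 6 Rgs2 stayed between 2.68 and 10.1 FPM. Over the 10 sets of both batches, the set of that library included, Rgs3 was lower with EGF in 9, by a mean log2 difference of -0.22 ± 0.29 (SD). The fitted log2 fold change of Rgs3 for EGF was -0.24 with the library and -0.04 without it. Set 6 of the EGF/AngII batch stood apart in Rgs10, with 131 to 167.2 FPM beside 7.63 to 31.3 FPM in the other sets, and in Rgs4, with 58.9 to 80 FPM.

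The other genes of the pathway came from lists chosen by function, and the calls below are for 24 h. Of all genes, 26.6% were called with U46619, 31.8% with EGF+U46619 and 33.1% with EGF+AngII+U46619. Of 9 tested further genes with an RGS domain, 1 rose and 0 fell with U46619, which was Snx25, a sorting nexin (log2 fold change 0.91, SE 0.18). It also rose with EGF+U46619 (0.92) and EGF+AngII+U46619 (0.85). Among 12 tested G protein alpha subunits, the targets of RGS proteins, 1 rose with U46619 (Gnai1, 0.55). With EGF+U46619, 2 rose (Gna13, 0.34; Gnai3, 0.52) and 1 fell (Gna12, -0.28), and none passed the test with EGF+AngII+U46619 (Gnai1, 0.36; Gnai3, 0.37). The Gq class subunits Gnaq and Gna11 were at 90.8 ± 46.4 and 261 ± 41.9 FPM in Control (SD, n = 6), and with U46619 Gnaq had 59.8 to 150.3 FPM and Gna11 189.7 to 283 FPM. Gnai2 is listed at 0 in every library.

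Transcripts for proteins that switch off receptors by other means were counted too, beside the 26.6%, 31.8% and 33.1% of all genes called in these 3 comparisons. Of 4 tested G protein-coupled receptor kinases, which phosphorylate active receptors, Grk6 rose with U46619 (0.75, SE 0.15), EGF+U46619 (0.86) and EGF+AngII+U46619 (0.88), and Grk2 rose with EGF+AngII+U46619 (0.36). Of 2 arrestins, which bind phosphorylated receptors, Arrb1 fell in all 3 groups (-0.79, -0.71 and -0.83). Arhgef1, an exchange factor that carries an RGS-like domain, fell by -0.36, -0.26 and -0.30 on the log2 scale and was 1 of 2 tested in its list. Of 6 tested binding partners of G protein alpha subunits and RGS proteins, Gpsm1 fell in all 3 groups (-0.47, -0.66 and -0.71) and Gpsm3 with U46619 (-0.83) and EGF+U46619 (-0.99). None of 3 phospholipase C beta genes, the effectors of the Gq class, was a DEG. The TP gene Tbxa2r fell, from 83.7 ± 54.1 FPM in Control to 29.8 ± 6.96 FPM with U46619 (SD, n = 6; log2 fold change -1.31, SE 0.32). Agtr1a, for AT1R, had 4.85 ± 7.38 FPM in Control, under the level minimum, and was no DEG for that reason. Its log2 fold change was -1.78 with U46619 (SE 0.54, FDR 0.0103 in edgeR and 0.0142 in DESeq2). With EGF+U46619 it was -3.09 (SE 0.59) and with EGF+AngII+U46619 -2.86 (SE 0.58), again with FDR below 0.05 in both tools. At 48 h, 0 of these genes were DEG for U46619 against Control, and for EGF+U46619 Snx25 rose (0.35) and Gpsm1 fell (-0.30).

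The genes whose levels ran most like the called members were taken over the 42 libraries of 24 h, after the mean of each mouse had been subtracted on the log2(FPM + 0.5) scale. These correlations describe libraries that share mice and treatments. Rgs5 ran with Heyl (r = 0.89), Pde5a (0.88) and Pthlh (0.87), and Rgs4 with Pde5a (0.88), Sdc2 (0.87) and Cyp1b1 (0.87). Between Rgs4 and Rgs5 themselves r was 0.86. Rgs2 ran with Ndrg2 (0.89) and Lpl (0.88), and opposite to Rgs16 (r = -0.84). Rgs16 ran with Kctd5 (0.94), Sphk1 (0.93) and Thbs1 (0.92). Rgs19 ran with Bud23, Acot7 and Arf1 (0.91 each), and Rgs3 with Mtch1 (0.92), Zfand3 (0.91) and Bet1l (0.89). Rgs3 and Rgs10 had r = 0.85 with each other.

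The members that stayed out of the calls were of 3 kinds. Rgs12 was steady, at 25.7 to 73.9 FPM in all 42 cultures of 24 h and 22.7 to 66.5 FPM at 48 h, and 467 of its 8487 exon bases are shared with Gm43791 on the opposite strand. Rgs10 varied mainly by mouse and set, with the lowest, median and highest values of 7.69, 23.1 and 67.4 FPM in Control and 7.28, 17.5 and 60.6 FPM with U46619 at 24 h. Rgs17 and Rgs14 were scarce. Rgs17 did not exceed 4.95 FPM at 24 h or 6.33 FPM at 48 h, and Rgs14 reached at most 20 counts in any library of 48 h.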

How the data were processed

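Paired-end, poly(A)-enriched libraries of aVSMC were deposited as 3 tables of raw counts per gene. The authors mapped reads to mm10 with HISAT2 2.1.0 and counted exon fragments with featureCounts, including multi-mapped reads, with Ensembl annotation, so fragments of near-identical genes can be counted repeatedly. Strand use in counting is not given in the sources used here. Genes of some chromosomes (7075) are listed at 0 in all libraries and no member lies on them. All per-sample columns were mapped to the labels (0 left unused).

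The members and gene lists were chosen with earlier results of these data known. All 10 members are printed, and of the lists counts and called genes. For each member called against Control at 24 h, the 3 genes with the highest within-mouse correlation are named, except 1 that is not reported here. From the deposited counts, TMM-scaled FPM were computed and genes passing filterByExpr at a time point (14653 at 24 h, 15796 at 48 h; only the 14528 passing at both could be called) were tested with edgeR 4.0.16 (quasi-likelihood F-test) and DESeq2 1.42.0 (Wald test) in R 4.3.3, with treatment and mouse as terms, separately for 24 h (42 libraries) and 48 h (40 libraries, both batches together); FDR is Benjamini-Hochberg over all genes tested. Changes spiked into simulated counts of Control and U46619 libraries (at 48 h of the EGF/U46619 batch alone) had the right sign wherever they were called. This simulation did not cover the fits of all groups or of both 48 h batches together. Per-culture differences are log2(FPM + 0.5) against the Control of the same mouse (24 h) or culture set (48 h).

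The labels give the mouse at 24 h. Deviations from group means were correlated over 0.1 in 126 of 126 same-mouse pairs at 24 h (0.40 to 0.95) and in 57 of 60 same-set pairs at 48 h, where the 3 exceptions involve the library labelled EGF/AngII Control replicate 4. Alternatives were no replicate block, the culture set as block, other normalization, filters, tests and pseudocounts, single batches, only the groups compared and each replicate left out; leaving out that one library was chosen after seeing the data. Intervals of counts cover counting error only and none is printed. Exon positions and lengths are from GENCODE M21 (GRCm38), promoters from RefSeq (GRCm38.p6), where Rgs14 has no entry.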

Additional observations from a re-analysis of the deposited data

Results flagged for a closer look

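In 10 of 135 member and group combinations with 5 or 6 cultures, 1 culture lay apart from the others by Dixon's criterion; chance alone gives about 1 in 20. At 24 h, Rgs2 in mouse 6 stood above the other 5 mice with AngII (37.1 FPM, group median 5.11) and with EGF+AngII (31.6 FPM, median 4.41). Rgs10 in mouse 3 did so with EGF+AngII+U46619 (87.8 FPM, median 13.8). At 48 h in the EGF/U46619 batch, Rgs10 in set 5 was above the other sets in Control (63.1 FPM, median 24.6) and with EGF (56.6 FPM, median 23.3). In the EGF/AngII batch, set 4 was high in Rgs2 with AngII (17.4 FPM, median 6.48) and low in Rgs12 with EGF+AngII (23.4 FPM, median 40.2), and in the Control group set 1 was high in Rgs16 (61.4 FPM, median 18.9) while set 6 was high in Rgs17 (5.52 FPM, median 1.93) and low in Rgs3 (35.1 FPM, median 108). Of 90 pairs of contrasts, 0 had all cultures of one time or batch on one side of 0 and all of the other on the opposite side.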

How the results depend on the processing

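Of all member fold changes under the alternatives run, 0 of those called changed direction; 45 were newly past and 64 no longer past the threshold. Counts of called members changed as follows. The share of all genes called is at hand only for the fits without the library labelled EGF/AngII Control replicate 4. Against Control it was 5.84% for EGF+U46619 and 3.48% for U46619, and against EGF 4.89% and 3.47%. For the other settings the share is not reported here, so nothing particular to RGS genes can be read from the counts. The cause was not tested unless stated. At 24 h, without the replicate block (mouse) 0 were called in each of the 5 comparisons with calls (U46619, EGF+U46619 and EGF+AngII+U46619 against Control, EGF+U46619 and U46619 against EGF). A fit restricted to both groups of the comparison, and so with fewer samples, gave 2 for EGF+AngII+U46619. Leaving out each mouse gave 3 to 5 members for EGF+U46619 against Control. At 48 h, EGF+U46619 against Control gave 2 members with DESeq2 alone, 2 with edgeR's likelihood ratio test, 2 with the culture set as the replicate block and 3 in the EGF/U46619 batch alone, but 0 without a filter on low counts, without the replicate block and in the fit restricted to both groups, and 0 to 2 when a culture set was left out. U46619 against Control gave 3 with DESeq2 alone, 3 with the culture set as the replicate block, 2 with the likelihood ratio test, 1 in the EGF/U46619 batch alone, 1 without the library labelled EGF/AngII Control replicate 4, and 0 to 1 when a culture set was left out. EGF+U46619 against EGF gave 1 under each of these 5 settings and 0 to 1 when a culture set was left out. U46619 against EGF gave 2 with DESeq2 alone, 2 with the culture set as the replicate block, 1 in the EGF/U46619 batch alone, 1 without that library, and 0 to 1 when a culture set was left out. Mean log2 differences per culture moved by over 1 SD in 7 cases, all with a pseudocount of 0.1 for Rgs14 and Rgs17. Depth limits Rgs14, Rgs17 and, in mice 1 to 3, Rgs5 and Rgs4.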
